A study of Mus musculus with 2 samples.

Results

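The unfolded protein response genes examined here were 10 genes chosen by name, and all 10 had a probe of their own on the array, among 18069 genes with such a probe. They were read in 2 pools of mouse embryo proper at embryonic day 8.5, 1 of 42 wild-type embryos and 1 of 45 mDom-/- embryos, which per the series' design text were litter-matched. The mDom gene (mDomino, p400, present symbol Ep400) encodes an ATPase of the TIP60/p400 chromatin-remodelling complex. Neither the allele nor the strain is stated in the labels. Each pool was hybridised to 1 one-colour CodeLink oligonucleotide array, so no value below has a replicate error and no test was possible. The comparison asks how transcripts of mDom-/- embryos differ from those of wild-type embryos.

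The unfolded protein response adjusts the endoplasmic reticulum (ER), where secreted and membrane proteins fold, to its load. Atf6 and the Ern1-spliced form of Xbp1 switch on chaperones and the machinery that removes misfolded proteins, while the kinase Eif2ak3 (PERK) slows translation and raises the protein Atf4, which switches on amino acid supply genes and the regulators Ddit3 (CHOP) and Trib3. Other kinases raise Atf4 too, so this arm also answers amino acid shortage. The members were therefore described in 2 arms. The ER arm held 6 genes, Hspa5, Hsp90b1, Pdia4, Herpud1, Xbp1 and Dnajb9, and the Atf4 arm held 4, Ddit3, Atf4, Trib3 and Asns.

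The sequences through which the arms are known to be switched on were read from the RefSeq promoters of GRCm38.p6, in the 250 bases before each start site, and are shown because the ER element was found in chaperone genes and the Atf4 element in Asns. All 10 members had 1 promoter entry. The ER stress element ERSE (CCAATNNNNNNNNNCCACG), its variant ERSE-II (ATTGGNCCACG), the unfolded protein response element UPRE (TGACGTGG) and the C/EBP-ATF response element CARE (TGATGNAA) were searched on both strands. ERSE lay in 0.113% of the 32851 promoters of the table, ERSE-II in 0.0304%, UPRE in 0.563% and CARE in 3.45%. Of the members, 4 held at least 1 of these motifs, and 6 held none in this window. Below, capitals mark each match, 5′ to 3′ on the gene's strand. No 2 matches overlapped.
Hspa5: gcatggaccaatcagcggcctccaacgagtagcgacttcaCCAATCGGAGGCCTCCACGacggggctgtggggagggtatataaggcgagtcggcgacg
Hsp90b1: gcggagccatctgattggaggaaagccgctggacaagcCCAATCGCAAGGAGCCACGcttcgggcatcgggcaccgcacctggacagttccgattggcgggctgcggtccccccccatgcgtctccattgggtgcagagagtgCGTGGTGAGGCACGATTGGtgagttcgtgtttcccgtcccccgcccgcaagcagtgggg
Herpud1: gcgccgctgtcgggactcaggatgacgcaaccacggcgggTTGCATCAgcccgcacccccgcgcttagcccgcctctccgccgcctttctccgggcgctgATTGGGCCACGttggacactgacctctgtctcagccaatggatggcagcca
Asns: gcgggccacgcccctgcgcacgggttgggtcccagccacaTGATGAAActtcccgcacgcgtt

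The Hspa5 stretch lies at chr2:34771985-34772083 on the plus strand, with 1 exact ERSE match from -65 to -47 relative to the start site. The Hsp90b1 stretch, chr10:86705493-86705694 on the minus strand, holds 2 ERSE matches, from -212 to -194 and, on the opposite strand, from -107 to -89. Herpud1, at chr8:94386277-94386427 on the plus strand, was the member with motifs of both arms, an ERSE-II from -52 to -42 and a CARE on the opposite strand from -112 to -105. Asns, at chr6:7693210-7693272 on the minus strand, holds a CARE from -23 to -16. A match describes these exact letters only, and near matches, which these stretches may also hold, were not counted. Binding was not measured.

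None of the 8 members measured on both arrays was 2-fold apart between the pools, and the median ratio was lower in the ER arm than in the Atf4 arm. Intensities are in units of the array median, a ratio is the log2 intensity of mDom-/- minus that of wild-type, and values under a floor of 0.541 were raised to it, so a ratio with 1 array under the floor is a bound. At least 2-fold higher were 0.845% of the 13136 compared genes and at least 2-fold lower 0.929%, so a count of 0 members does not stand apart from this background. Herpud1 and Trib3 were bounds, and both read too close to the floor in wild-type to pass 2-fold at this setting. Of the 10 members 7 had a ratio below 0 and 3 above it, where 50.5% of all compared genes lay below 0 and their median was -0.00. The median was -0.37 in the ER arm, with 5 of 6 below 0, and -0.08 in the Atf4 arm, with 2 of 4 below 0. The 5 below 0 in the ER arm include Dnajb9, whose 2 probes disagreed. The arm medians differed by -0.29, and by -0.39 to -0.16 under the alternatives, the smallest size being that with the ER arm cut to Hspa5, Hsp90b1, Pdia4 and Dnajb9. With the mean over probes the ER arm median was -0.28 and the arm difference -0.20. The Atf4 arm median itself was 0.02 with the floor at the 60th percentile, with no floor, or over members measured on both arrays. The wider lists described below did not repeat this order throughout. Their medians were -0.04 for other ER chaperones and -0.01 for ER-associated degradation. Among Atf4 targets they were 0.20 for transcription and stress, -0.10 for amino acid supply and -0.35 for aminoacyl-tRNA synthetases. The only yardstick within the arrays was 1301 genes with 2 probes measured on both arrays, where the SD of a ratio was 0.25 on the log2 scale; it does not cover the spread between pools. In pools of embryo proper, fewer cells of a type and less RNA per cell cannot be told apart.

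**Figure D1:**
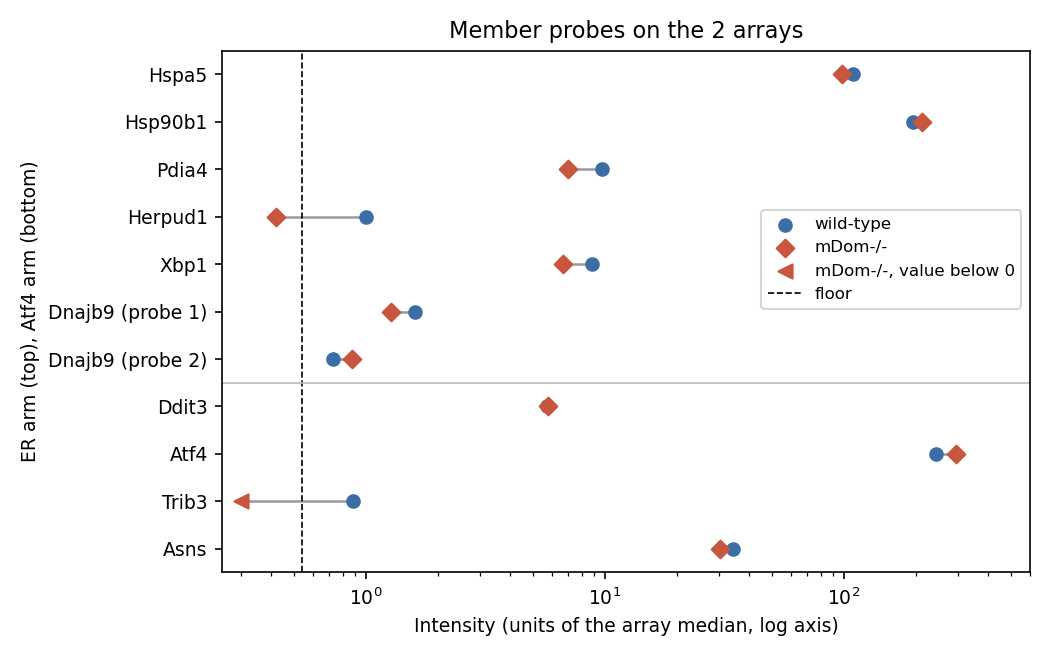
Intensity of each member probe on the wild-type array (circles) and the mDom-/- array (diamonds), in units of the array median on a log axis, with the floor of 0.541 as a dashed line. Herpud1 and Trib3 crossed the floor, Trib3 with a value below 0 drawn as a triangle at the left edge. Brightness of different probes is not a comparison of their levels.

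Among the chaperones, Hspa5 (BiP), the Hsp70 of the ER and the protein that holds the stress sensors inactive, read 109 in wild-type and 98.2 in mDom-/-. That is 1.11-fold lower (log2 ratio -0.15), less than the probe-pair SD. Hsp90b1 (Grp94), the Hsp90 of the ER, read 194 in wild-type and 213 in mDom-/-, a log2 ratio of 0.13 that became -0.02 with loess on brightness. The chaperones with ERSE matches, shown above, thus lay on either side of 0, both within that SD.

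Pdia4 (Erp72), a disulfide isomerase that pairs cysteines in folding proteins, read 9.74 in wild-type and 6.98 in mDom-/-. It was 1.39-fold lower (log2 ratio -0.48), and the ratio stayed between -0.48 and -0.45 under all alternatives. Among all compared genes it stood at percentile 7.07. Dnajb9 (ERdj4), a co-chaperone of Hspa5, was the member with 2 probes, and they disagreed. The brighter probe read 1.60 in wild-type and 1.27 in mDom-/- (log2 ratio -0.33), and the dimmer read 0.727 and 0.877 (log2 ratio 0.27). Their mean ratio was -0.03, so no direction can be given for Dnajb9.

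Xbp1, the transcription factor whose mRNA is cut by Ern1, read 8.84 in wild-type and 6.70 in mDom-/-. It was 1.32-fold lower (log2 ratio -0.40), between -0.40 and -0.37 under the alternatives. Whether the probe tells the spliced from the unspliced form is not stated in the files.

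Herpud1, a membrane protein of the ER that helps to send misfolded proteins to the proteasome, read 0.995 in wild-type and 0.418 in mDom-/-. The second value lay under the floor, which makes it at least 1.84-fold lower (log2 ratio -0.88). With the floor at the 25th percentile both arrays counted as measured and the log2 ratio was -1.25, a 2.38-fold difference. That floor also let 3.31% of all genes pass 2-fold lower, so the larger value comes with a wider background.

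In the Atf4 arm, Atf4, the transcription factor that gives the arm its name, read 244 in wild-type and 295 in mDom-/-. It was 1.21-fold higher (log2 ratio 0.28), but 0.10 with loess on brightness. Atf4 is known to be controlled mostly by translation of its mRNA, which these arrays do not measure. A further probe, annotated to Atf4 and to another gene, was left out.

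Ddit3 (CHOP), a transcription factor tied to cell death under prolonged ER stress, read 5.71 in wild-type and 5.79 in mDom-/-, a log2 ratio of 0.02. Asns, which makes asparagine, read 34.3 and 30.4, 1.13-fold lower (log2 ratio -0.17), within the probe-pair SD. Trib3, a pseudokinase that dampens Atf4 and Ddit3, read 0.883 in wild-type and -0.0529 in mDom-/-. It was therefore at least 1.63-fold lower (log2 ratio -0.71), and the bound was -1.88 on the log2 scale with the floor at the 25th percentile.

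The members with the lowest ratios, Herpud1 and Trib3, were thus 1 of each arm, and both read close to the floor in wild-type. They were the 2 members at least 1.5-fold lower, a size that 4.35% of all compared genes reached, and no member was 1.5-fold higher, against 4.08% of all genes. Ratios of dim genes spread more: the robust SD of the ratio was 0.35 in the dimmest 2982 genes measured on both arrays, which include Dnajb9. It was 0.22 among the 2981 genes that include Pdia4 and Xbp1, and 0.19 in the brightest 2982, which include Hspa5, Hsp90b1, Atf4 and Asns. Pdia4 lay farther from 0 than any other member measured on both arrays.

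**Figure D2:**
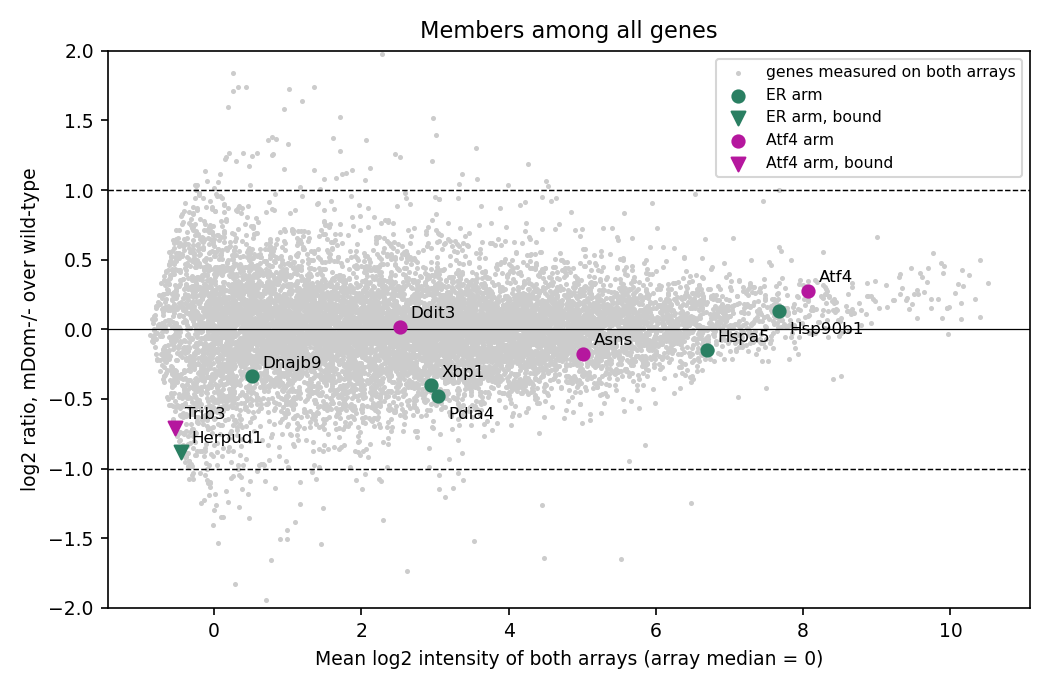
Log2 ratio (mDom-/- over wild-type) against mean log2 intensity for the genes measured on both arrays (grey), with the members of the ER arm in green and of the Atf4 arm in magenta; triangles are bounds and dashed lines mark 2-fold. All 10 members lie between the lines, Herpud1 and Trib3 as bounds; 6 genes with a log2 ratio beyond 2 in size are not drawn.

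**Figure D3:**
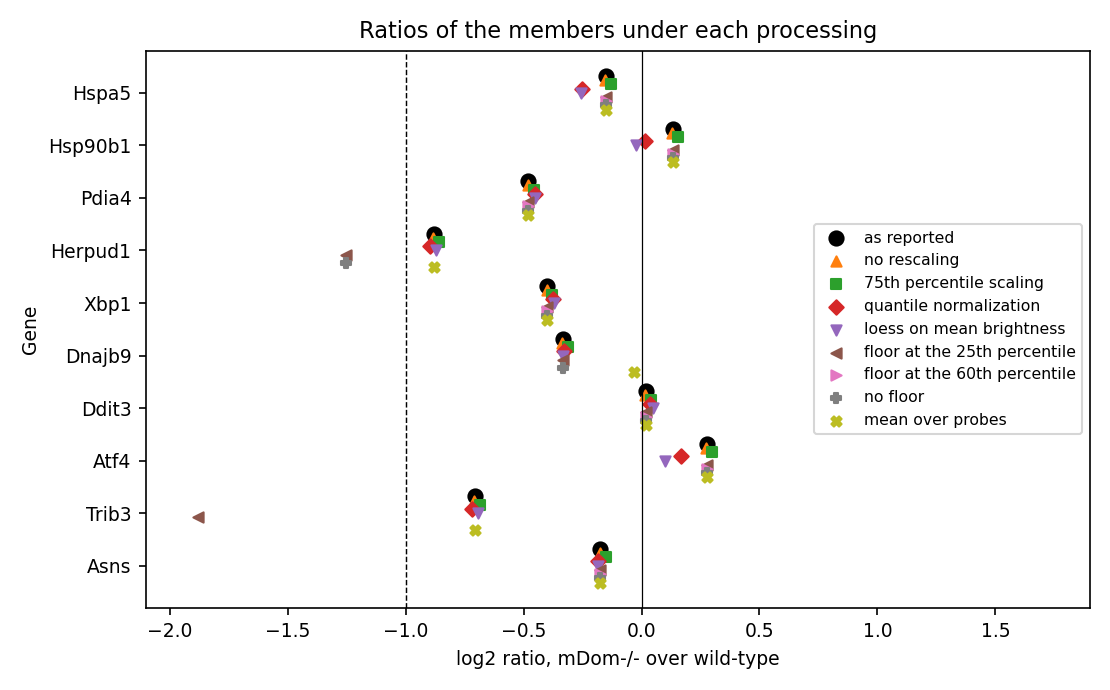
Log2 ratio of each member as reported (black) and under each alternative scaling, floor and probe rule; the dashed line marks 2-fold lower. Pdia4, Xbp1 and Asns moved little, Hsp90b1 crossed 0 with loess (-0.02), and Herpud1 (-1.25) and Trib3 (-1.88) passed 2-fold with the lowest floor; an absent marker means that the gene was not compared at that setting.

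The rest of the pathway was read from 9 lists holding 156 genes, of which 142 had a probe and 135 were compared. Their median was -0.04, with 77 below 0 and 58 above. Of the 135, 1 was at least 2-fold higher and 2 were lower, beside backgrounds of 0.845% and 0.929%. Counts this small do not stand apart from those backgrounds. The genes were Sesn2, Cth and Slc7a11, all dim, and none passed 2-fold with the floor at the 60th percentile. They are listed below as Atf4 targets, from which no result about that group is drawn.

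The stress sensors and the proteases that cut Atf6 went both ways. Of 12 listed genes 10 were compared, 5 above and 5 below 0, with a median of 0.05. None was 2-fold apart, beside backgrounds of 0.845% higher and 0.929% lower. Mbtps1 (site-1 protease), which makes the first of the cuts that free Atf6 in the Golgi, read 2.17 in wild-type and 1.11 in mDom-/-, 1.96-fold lower, and its dimmer probe had a log2 ratio of -0.29. Atf6b, a relative of Atf6, had -0.40. The related membrane-bound factors Creb3l3 and Creb3l4 had 0.55 and 0.34. Ern1 (0.11) and Eif2ak3 (-0.17), the sensors of the Xbp1 and Atf4 arms and named outside the naming rule, were within the probe-pair SD. Atf6 had no probe of its own.

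The other chaperones and folding enzymes of the ER had a median near 0. Of 27 listed genes 23 were compared, all measured on both arrays, with 13 below and 10 above 0, a median of -0.04 and none 1.5-fold apart in either direction. The lowest were Dnajc10, a disulfide reductase (log2 ratio -0.57), and Ero1b, an oxidase that drives disulfide formation (-0.49). A dimmer probe of Ero1b had -0.23, a bound. The highest were Erp29 (0.32), an ER-resident folding factor, and Fkbp2 (0.22), a prolyl isomerase.

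ER-associated degradation, the route that Herpud1 serves, had a median of -0.01 over 20 compared genes of 21, which turned above 0 when scaled to the 75th percentile or with the floor at the 60th, with 10 genes on each side of 0. The lowest was Herpud2, the paralogue of Herpud1, which read 1.21 in wild-type and 0.735 in mDom-/-, 1.65-fold lower. Ube2g2, a ubiquitin-conjugating enzyme, had -0.29. Edem3 and Faf2, which act in handling misfolded glycoproteins and in their extraction, had 0.15 each. The translocon, signal peptidase and glycosylation list, the entry route into the ER, had a median of 0.02 over 22 compared genes of 26 (below 0 with quantile normalization, loess, a floor at the 25th percentile, no floor or the mean over probes), 11 on each side of 0, from Srp54a (-0.32) and Rpn2 (-0.26) to Dad1 (0.25) and Ssr3 (0.38).

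The control of eIF2, the translation factor through which Atf4 is raised, had a median of -0.13 over 12 compared genes of 13, 8 below 0 and none 1.5-fold apart. That count of 0 does not stand apart from the 4.08% higher and 4.35% lower of all compared genes. The kinase gene Eif2ak2 (PKR) and the eIF2B subunit gene Eif2b1 were lowest, at -0.35 and -0.28. Ppp1r15b, a cofactor of the phosphatase that reverses the signal, was highest at 0.22, followed by Gcn1, a partner of the amino acid sensor Eif2ak4, at 0.02. Dimmer probes of Gcn1 had -0.07 and 0.24, the latter a bound.

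Known targets of Atf4 were listed by function. Of the transcription and stress genes 13 of 18 were compared, 10 above and 3 below 0, with a median of 0.20 that stayed between 0.19 and 0.22 under the alternatives. Sesn2, a stress-induced inhibitor of growth signalling, read 0.503 in wild-type, under the floor, and 1.13 in mDom-/-, at least 2.09-fold higher. It was dim, and it was not 2-fold apart with the floor at the 60th percentile. Ddit4, another inhibitor of the same growth signal, read 2.49 and 3.72 (log2 ratio 0.58), and Bbc3 (Puma), a cell death gene, had 0.51. Txnip and Atf3 were lowest, at -0.23 and -0.25, and a dimmer probe of Txnip had -0.52. Genes on both sides of 0, among them Sesn2, Bbc3, Ddit4, Gadd45a (0.49, named outside the naming rule) and Atf3, are also known targets of p53. Any part of p53 in these ratios was not tested.

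The amino acid supply genes, to which Asns belongs by function, had a median of -0.10 over 16 compared genes of 19, 9 below and 7 above 0. Cth, which makes cysteine, read 1.77 in wild-type and 0.612 in mDom-/-, 2.89-fold lower. Slc7a11, the cystine importer, read 1.16 and 0.233, at least 2.14-fold lower. Both were dim, and neither was 2-fold apart with the floor at the 60th percentile. Cbs, the enzyme that acts just before Cth, had 0.04, and its dimmer probe 0.20. Slc1a5, a glutamine transporter, was 1.55-fold lower. At the other end, Slc7a3, a transporter of basic amino acids, and Pck2, a mitochondrial enzyme, had 0.58 and 0.46.

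The aminoacyl-tRNA synthetases, which load amino acids onto tRNAs, had low medians. All 12 of the 12 listed as Atf4 targets were measured on both arrays and lay below 0, with a median of -0.35 (-0.37 to -0.23 under the alternatives), and 1 was at least 1.5-fold lower beside the background of 4.35%. The lowest were Cars, from 1.62 in wild-type to 0.882 in mDom-/- (1.84-fold lower), and Lars, from 10.7 to 7.24 (1.47-fold lower), although a dimmer probe of Lars had a log2 ratio of 0.40. Mars1 and Aars were closest to 0, both at -0.01 or nearer, and with Gars they turned above 0 when scaled to the 75th percentile. The cytosolic synthetases not listed as Atf4 targets also lay low, with a median of -0.24 over 7 compared genes of 8, 6 of them below 0. Among them Vars and Farsb had -0.54 and -0.45, and Qars and Farsa -0.10 and 0.04. The difference between the synthetase lists was not tested.

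**Figure D4:**
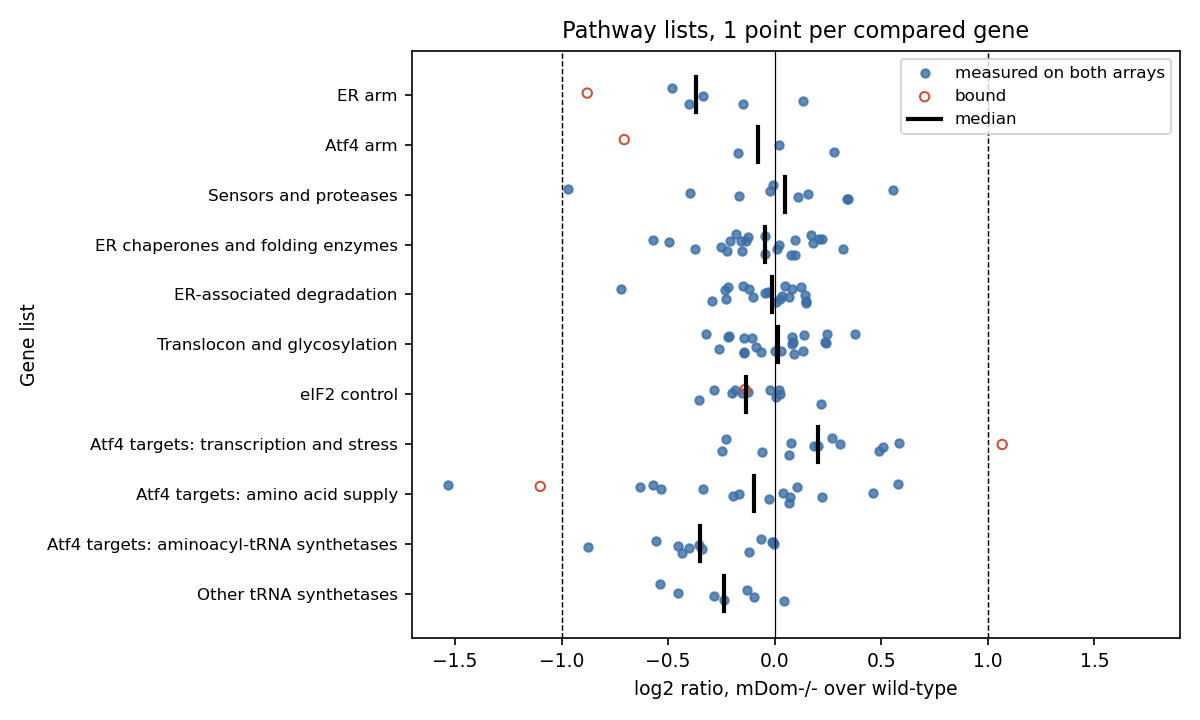
Log2 ratio of every compared gene of the 2 arms and the 9 pathway lists, with the list median as a black bar, bounds as open circles and dashed lines at 2-fold. The synthetase medians (-0.35 and -0.24) and the ER arm median (-0.37) lie lowest, and the Atf4 transcription and stress targets highest (0.20).

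Markers of the cell types that the pools could hold are given beside these values. Markers of the embryo proper were present, with 15 of 18 compared, a median of 0.06 and a summed intensity of 568 in wild-type and 592 in mDom-/-; Sox2 and Shh lay under the floor on both arrays. Visceral endoderm and yolk sac markers, from a secretory tissue, summed to 724 and 926 over 12 of 14 genes (median 0.25), with 7 above and 5 below 0. That sum was carried by Apoc2 (128 and 242) and Ttr (167 and 251), while Cubn and Lrp2 had log2 ratios of -0.62 and -0.74. Gut endoderm and pancreas markers summed to 176 and 341 over 8 of 9 genes (median 0.40, 7 above 0), carried by Spink1 (144 and 289). The ER arm itself summed to 324 and 327 over its 6 genes, carried by Hspa5 (109 and 98.2) and Hsp90b1 (194 and 213), which went opposite ways. Its dimmer genes, as Pdia4 and Xbp1, hardly weigh in that sum. Primitive red cell markers summed to 340 and 30.0 over 4 of 6 genes, with Hbb-y and Hba-x lowest at log2 ratios of -4.71 and -3.15. Trophoblast and decidua markers summed to 37.4 and 34.2 over 4 of 8 genes (median -0.26), and none of the 3 macrophage markers with a probe was above the floor. The part of any of these cells in the ratios of the members was not tested.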

How the data were processed

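Total RNA of the 2 pools was measured on 1 array each. The intensity values were deposited by the authors on a linear scale, from images analysed with the CodeLink software, per the labels' descriptions. Neither background correction, nor scaling, nor detection flags are described in the labels. The deposited medians were 1.0503 in wild-type and 1.0485 in mDom-/-, so the arrays came on nearly the same scale and division by the median changed little. The code -9999 was read as no value (105 wild-type and 106 mDom-/- probes of 36227). Groups came from the sample titles.

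Probes were named through the platform annotation: 21615 had 1 gene symbol, 681 several (none named from these) and 13931 none listed. Symbols of 21487 were updated through RefSeq GRCm38.p6. Each array was divided by its median, raised to the higher of the 40th percentiles of both arrays (0.541) and put on the log2 scale. A gene took its compared probe with the highest mean. This gave 13136 compared genes, 11926 measured on both arrays. Python 3.11.15, pandas 2.3.3 and statsmodels 0.14.6 (loess span 0.3) were used. The ratio step was tested on simulated data in which only bright probes were changed, each by more than 2-fold. That test does not show how well small ratios, or ratios near the floor, are recovered.

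With 1 array per group there was no test; a size rule of 2-fold was used, and precision is limited by having 1 array per group. The members, lists and rules were chosen with earlier results of these data known. Named were all members, the 2 highest and 2 lowest genes of each list measured on both arrays, and every list gene 2-fold apart. Alternatives were 4 other scalings, 3 other floors, the mean over probes, genes measured on both arrays only, a 1.5-fold rule and a narrower ER arm.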

Additional observations from a re-analysis of the deposited data

How the results depend on the processing

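The ER arm median ran from -0.37 to -0.24 and the arm difference from -0.39 to -0.16 over 10 alternatives, both below 0 throughout, while the Atf4 arm median ran from -0.08 to 0.02 and changed sign in 3 of 9. No spread between pools is known against which to judge these shifts. Counts past the size rule did not hold as well. The count of members 2-fold apart, 0 as reported, was 2 with the floor at the 25th percentile (Herpud1 and Trib3), 1 with no floor (Herpud1, since Trib3 then could not be compared) and 2 with the 1.5-fold rule. The pathway genes 2-fold higher, 1 as reported, were 0 with the floor at the 60th percentile, 0 among genes measured on both arrays and 3 with no floor. Those 2-fold lower, 2 as reported, were 0, 1 and 4 at these settings, and 6 with the 1.5-fold rule. The share of all compared genes moved too. At least 2-fold lower were 3.31% with the floor at the 25th percentile, against 0.929% as reported. With the 1.5-fold rule 4.35% were lower and 4.08% higher. At the other settings that share was not computed, so these counts describe the settings and not the genes. Among the members, the ratios that moved by more than the probe-pair SD of 0.25 were those of Herpud1 (-1.25 with the floor at the 25th percentile and with no floor), Trib3 (-1.88 with that floor) and Dnajb9 (-0.03 as the mean over probes). The other 161 values for members and list medians moved less; genes of the pathway lists were followed singly under the scalings only, and where their probes differ, as for Lars and Mbtps1, the mean over probes would move them too. A planned list of genes with an ER retention signal at the protein's end was not run, since protein sequences were not used here. No paired analysis was possible because each group has 1 array. Signal near the floor limits what can be said of Herpud1, Trib3, Sesn2, Cth and Slc7a11, and the cause of the dependence on scaling was not tested.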

Other observations

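The ER stress element was followed beyond the members, a step added after the values had been seen. Of 23 compared genes with ERSE or ERSE-II in the 250 bases before the start site, 3 were members and 7 belonged to a pathway list, 3 of these below 0 and 4 above. The 16 compared genes with ERSE had a median log2 ratio of 0.02, with 7 below 0. The 7 with ERSE-II all lay below 0, where 50.5% of all compared genes did, with a median of -0.13. Herpud1 and Rnf151 (-0.08) among them were bounds, and the rest lay within the probe-pair SD of 0.25. Herpud1 was already known to be low, and ERSE-II was 1 of 4 motifs searched. No conclusion about the motif is drawn from the direction of these 7 genes. None of the genes with either motif passed 2-fold, though Herpud1 was a bound of at least 1.84-fold lower. With 0.845% of all compared genes 2-fold higher and 0.929% lower, that count of 0 does not stand apart. Among the pathway genes, Ero1b (-0.49), Syvn1 (-0.22), a ubiquitin ligase of ER-associated degradation, and Creld2 (-0.21), an ER-resident stress gene, were lower. Above 0 were Derl3 (0.14), Dnajc3 (0.08) and the lectin chaperone genes Calr (0.18) and Canx (0.02), the latter with a second probe at -0.15. CARE was held by 290 compared genes, with a median of -0.04, and UPRE by 95, with a median of 0.01.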
